A study of Mus musculus with 12 samples.

Results

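The genes described here encode the nuclear subunits of respiratory complex I (NADH:ubiquinone oxidoreductase) and its assembly factors. They were chosen by name, as every row of the count table whose Ensembl identifier maps to a mouse protein-coding symbol that starts with Nduf. This gave 48 rows of 53700. Of these, 36 encode complex I subunits, 8 encode Ndufaf assembly factors, 2 are Ndufa4 and its relative Ndufa4l2, 1 is Ndufb4c (a near-copy of Ndufb4) and 1 is another Ensembl identifier for Ndufb8 that held no counts. All but the last passed the filter on low counts, so 47 members were tested among 17847 genes. No row was matched to Ndufb1 or Ndufb4b.

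RNA-Seq counts came from whole hearts, 6 from ac-WT and 6 from ac-CYB5R3–KO mice. By the study's account, the mice of this part of its work were male. Both groups carried a Myh6-CreERT2 transgene, a Cre recombinase that the Myh6 promoter expresses in cardiomyocytes and that tamoxifen activates, and both received tamoxifen. The Cyb5r3 alleles were wt/wt in ac-WT mice and fl/fl in ac-CYB5R3–KO mice, so that tamoxifen deletes Cyb5r3, which encodes cytochrome b5 reductase 3, in cardiomyocytes and leaves it in the other cells of the heart. Tamoxifen was given at 33 mg/kg/d on 5 days to mice that were 10 to 13 weeks old at the start, on an FVB/B6 background crossed 3 times to C57BL/6J, and hearts were taken 5 days after treatment. Each library was labelled as 1 heart, and p-values measure the spread between these mice.

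Complex I takes electrons from NADH, passes them along a chain of iron-sulfur clusters to ubiquinone, and uses the energy to pump protons across the inner mitochondrial membrane. Its N module binds NADH, its Q module reduces ubiquinone, and its P module is the membrane arm that pumps protons. Core subunits are shared with bacteria and carry the cofactors or the pump, accessory subunits surround them, and assembly factors help to build the enzyme and are absent from the finished complex. Heart muscle is rich in this enzyme, since most of its ATP comes from oxidative phosphorylation.

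Every one of the 36 nuclear subunit genes had lower expression in ac-CYB5R3–KO hearts than in ac-WT hearts after TMM normalization, where 51.2% of all genes tested were lower. Their median log2 fold change was -0.66 and their range -0.94 to -0.13. When libraries were scaled by their total counts instead, 33 of the 36 were lower, against 18.1% of all genes, the median was -0.28, and 11 subunits were lower at an unadjusted p under 0.01, against 0.79% of all genes. In edgeR's quasi-likelihood test 24 subunits were lower at an unadjusted p under 0.01, against 3.27% of all genes tested, and 32 were lower at an unadjusted p under 0.05, against 9.73%. None of the 47 members passed an adjusted p of 0.05, a level reached by 0.101% of all genes tested, and the lowest adjusted p was 0.152. limma-voom also called 0 members at that level. DESeq2 called 17, which were 16 subunits and Ndufa4, against 1.68% of all genes that it called lower. The words lower and higher therefore describe group values below, and no single member is reported as changed by edgeR.

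The 8 assembly factors lay closer to 0. Their median log2 fold change was -0.32. With TMM 7 of 8 were lower, against 51.2% of all genes tested, and with total counts 4 of 8, against 18.1%. In edgeR 0 were lower at an unadjusted p under 0.01, against 3.27% of all genes, and 4 at one under 0.05, against 9.73%. DESeq2 gave 1 at an unadjusted p under 0.01. In 21 of the 36 subunits each ac-CYB5R3–KO heart lay below each ac-WT heart, against 1.04% of all genes tested, while this held for 0 of 8 assembly factors. With total counts it held for 14 subunits, against 0.319% of all genes.

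**Figure D1:**
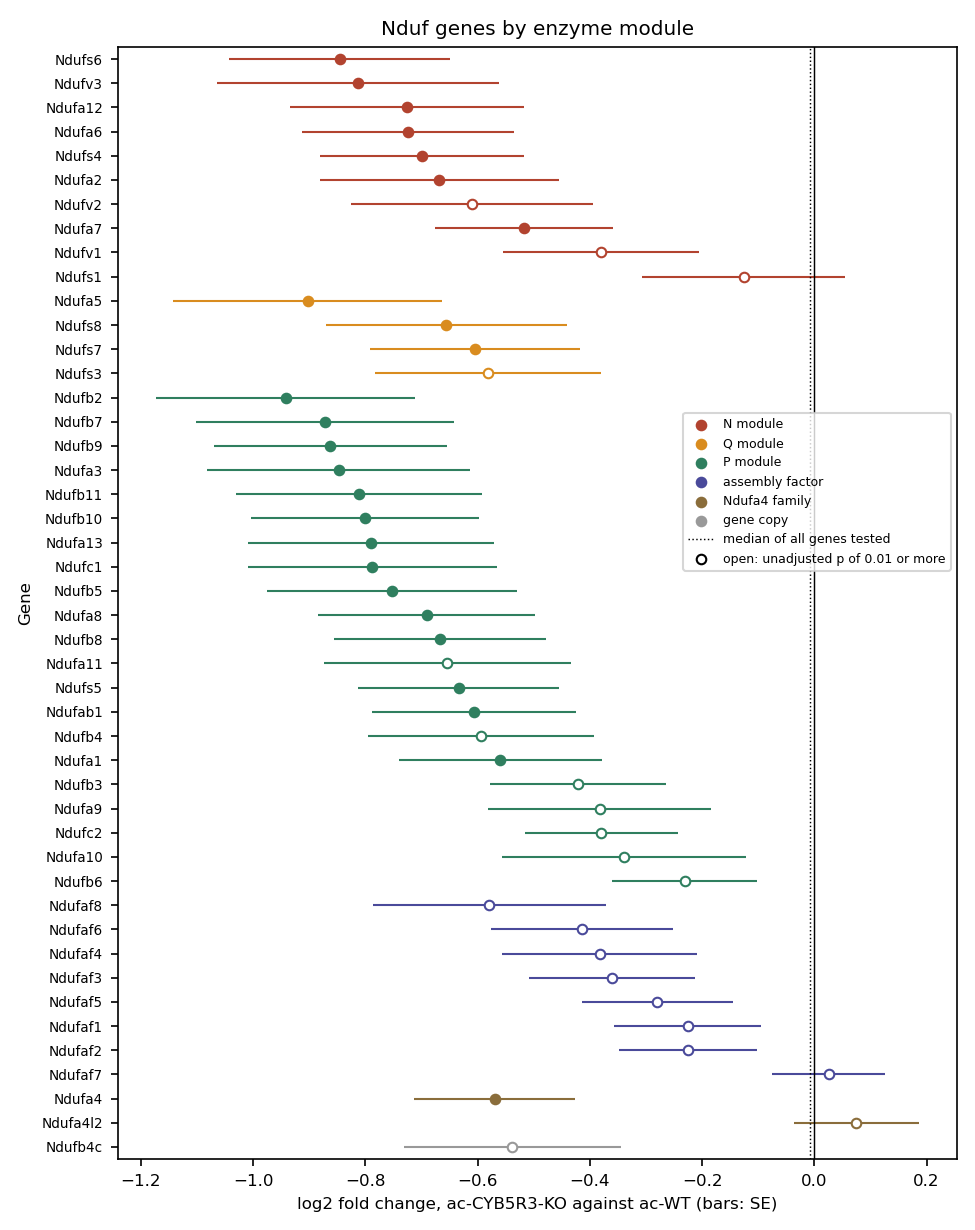
Log2 fold change of the tested Nduf genes reported singly (horizontal axis, bars are the standard error from edgeR, 6 against 6 hearts), grouped by colour into N, Q and P modules, assembly factors, the Ndufa4 family and the gene copy. Filled points have an unadjusted p under 0.01. All subunits shown lie left of 0 with TMM scaling (with total counts Ndufs1, Ndufa10 and Ndufb6 lie right of it), Ndufs1 nearest to it at -0.13, while Ndufaf7 and Ndufa4l2 lie right of it at 0.03 and 0.07.

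The scale matters for these values. Library totals were similar, between 43393183 and 53754284 counts, but the TMM factors of ac-WT mice 2 and 3 were 0.570 and 0.723, and those of the other 10 libraries lay between 0.988 and 1.22. Their normalized values were accordingly raised, and the mean log2(CPM + 1) of the subunits was highest in these hearts, at 8.60 and 8.04, with 7.45 to 7.60 in the other ac-WT hearts and 6.93 to 7.34 in the ac-CYB5R3–KO group. With TMM the median over all genes tested was -0.01, and with total counts it was 0.26. Relative to that shift the subunit median was -0.54 and the assembly factor median -0.26. Without ac-WT mice 2 and 3, 34 of 36 subunits were lower, against 46.3% of all genes, 17 of them at an unadjusted p under 0.01 against 1.32% of all genes, and the median was -0.31. The assembly factor median was then -0.11.

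**Figure D2:**
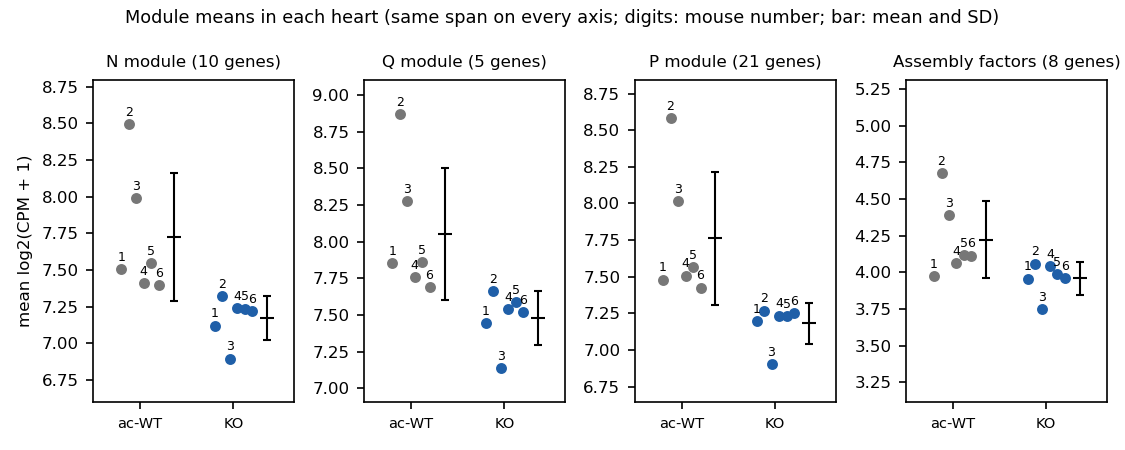
Mean log2(CPM + 1) of the genes of each module and of the assembly factors (vertical axes, all with the same span) in each heart, with the mouse number beside each point and the mean and SD of 6 hearts beside each group. ac-WT mice 2 and 3 stand above the rest in every panel, ac-CYB5R3–KO mouse 3 is the lowest, and the groups overlap only for the assembly factors.

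Some measures are taken within a library and do not use the TMM factors, or depend on them little. The 48 rows took 0.792% to 0.946% of all counts in ac-WT hearts and 0.637% to 0.787% of those in ac-CYB5R3–KO hearts. All ac-CYB5R3–KO hearts were below all ac-WT hearts. Transcripts of the mitochondrial genome held 24.8% to 35.3% of the counts in ac-WT and 24.0% to 28.3% in ac-CYB5R3–KO hearts, and among the remaining counts the Nduf share was 1.12% to 1.46% and 0.838% to 1.05%. Again the groups did not overlap. The mean log2(CPM + 1) of the subunits exceeded that of the assembly factors by 3.34 to 3.92 in ac-WT hearts and by 3.18 to 3.32 in ac-CYB5R3–KO hearts. All 6 ac-CYB5R3–KO hearts were below the lowest ac-WT heart, and the group means differed by -0.31, by -0.29 with total counts, and by -0.20 without ac-WT mice 2 and 3. No p is given for these sums, because the members were chosen with results known.

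**Figure D3:**
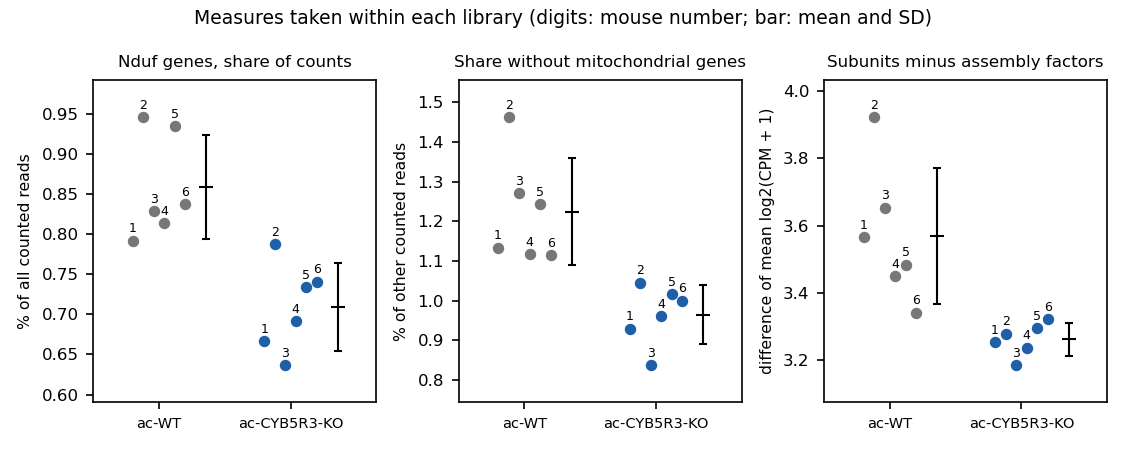
Measures taken within each library. The left and middle panels give the Nduf rows as a percentage of all counts and of counts outside the mitochondrial genome, and the right panel gives the mean log2(CPM + 1) of 36 subunits minus that of 8 assembly factors; digits are mouse numbers and bars are the mean and SD of 6 hearts. In each panel all ac-CYB5R3–KO hearts lie below all ac-WT hearts, and the vertical axes do not start at 0.

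The promoters of Ndufs6, Ndufa5 and Ndufaf7 are shown, to set their sequence beside the values that follow. They are RefSeq windows on GRCm38.p6, from 250 bases before the transcription start to 50 after it, 5′ to 3′ on the gene's strand, in lower case. Ndufs6 had the lowest p of all members, Ndufa5 had the largest difference in the Q module and is among the highest members per length, and Ndufaf7 was the assembly factor with the log2 fold change nearest to 0 with TMM. Capitals mark matches, on either strand, to the letters GCGCA, any base, GCGC (the core of the site of NRF1, a regulator of respiratory genes) or AAGATGGCG (the core of the site of YY1).
Ndufs6, chr13:73328433-73328732, minus strand: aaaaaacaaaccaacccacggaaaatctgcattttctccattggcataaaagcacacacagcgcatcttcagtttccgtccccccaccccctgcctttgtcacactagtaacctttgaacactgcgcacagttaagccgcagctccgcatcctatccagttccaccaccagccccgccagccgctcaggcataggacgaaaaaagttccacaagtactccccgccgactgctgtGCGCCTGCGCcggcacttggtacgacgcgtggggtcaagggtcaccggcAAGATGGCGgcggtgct
Ndufa5, chr6:24527641-24527940, minus strand: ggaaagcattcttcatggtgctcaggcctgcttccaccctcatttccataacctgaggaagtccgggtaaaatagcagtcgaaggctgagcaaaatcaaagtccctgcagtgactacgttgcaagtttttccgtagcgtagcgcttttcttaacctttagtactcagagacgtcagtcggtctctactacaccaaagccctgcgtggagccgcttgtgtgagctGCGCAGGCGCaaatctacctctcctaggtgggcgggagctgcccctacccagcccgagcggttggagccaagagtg
Ndufaf7, chr17:78936885-78937184, plus strand: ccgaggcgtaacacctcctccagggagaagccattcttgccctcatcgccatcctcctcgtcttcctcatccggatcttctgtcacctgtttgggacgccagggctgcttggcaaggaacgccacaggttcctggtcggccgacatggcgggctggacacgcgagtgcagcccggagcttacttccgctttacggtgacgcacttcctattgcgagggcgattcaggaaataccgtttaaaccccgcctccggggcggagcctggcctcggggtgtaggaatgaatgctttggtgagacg

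Over the 34 windows of 32 subunits in the RefSeq table, the NRF1 letters were in 8 windows (23.5%), against 4.60% of all 32851 windows and 9.01% of the 14092 windows of tested genes. Overlapping windows of Ndufa5 hold the same site, so these 8 windows belong to 7 genes. The YY1 letters were in 5 (14.7%), against 1.40% and 2.66%. The ETS letters CCGGAAG, a core of the site of GABPA, were in 4 (11.8%), against 8.86% and 15.8%, and the ERR letters TCAAGGTCA were in none, against 0.423% and 0.270%. The 7 assembly factor windows held the NRF1 letters in 2, the ETS letters in 2, the YY1 letters in 1 and the ERR letters in none. These matches are descriptions of the letters in the windows. Subunits with and without the NRF1 letters had median log2 fold changes of -0.69 (7 genes) and -0.66 (25 genes), values that lie within the range of the subunits and were not compared by a test. The windows of Ndufb2 and Ndufb7, with log2 fold changes of -0.94 and -0.87, are not printed above and held neither the NRF1 nor the YY1 letters. Among the assembly factors, Ndufaf4 and Ndufaf5, at -0.38 and -0.28, held the NRF1 letters, while the printed Ndufaf7 did not.

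The N module had 10 genes, of which 7 were lower at an unadjusted p under 0.01, with a median log2 fold change of -0.68. Ndufs6, a zinc-binding accessory subunit added late in assembly (chr13:73457286-73465990 on NCBIM37), spanned 186 to 435 CPM (counts scaled to library size) with a median of 227 in ac-WT hearts and 134 to 161 CPM with a median of 155 in ac-CYB5R3–KO hearts. No value overlapped, and the 6 ac-CYB5R3–KO hearts lay within a narrow band. Its log2 fold change was -0.85 (SE 0.20, edgeR adjusted p = 0.152, exact permutation p = 0.00216). The latter test was two-sided, over all placements of 12 mice into groups of 6, and this is the smallest p that it can give. The log2 fold change was -0.47 with total counts and -0.46 without ac-WT mice 2 and 3.

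Ndufa6, an LYR-motif subunit that holds the mitochondrial acyl carrier protein, spanned 222 to 490 CPM (median 245) in ac-WT and 147 to 195 CPM (median 180) in ac-CYB5R3–KO hearts. The groups did not overlap, and its log2 fold change was -0.72 ± 0.19 (SE, edgeR adjusted p = 0.173, exact permutation p = 0.00216). Ndufv3, an accessory subunit of the NADH-binding tip, Ndufs4, whose human counterpart is mutated in Leigh syndrome, Ndufa12, Ndufa2 and Ndufa7 were the other 5 at this level, with log2 fold changes from -0.81 to -0.52.

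The core subunits of the N module had smaller log2 fold changes than Ndufs6 and Ndufa6. Ndufv1, which binds NADH and flavin mononucleotide, spanned 239 to 432 CPM (median 269) in ac-WT and 180 to 319 CPM (median 228) in ac-CYB5R3–KO hearts, and its log2 fold change was -0.38 ± 0.17 (SE, edgeR adjusted p = 0.335, exact permutation p = 0.0736). Ndufv2, which carries an iron-sulfur cluster beside the flavin, spanned 261 to 664 CPM (median 310) and 176 to 262 CPM (median 253), and its log2 fold change was -0.61 ± 0.22 (SE, edgeR adjusted p = 0.234, exact permutation p = 0.00433). Both overlapped between the groups, Ndufv2 in 1 ac-CYB5R3–KO heart and Ndufv1 in 2.

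Ndufs1, the largest subunit and the one that carries most of the iron-sulfur clusters of the N module (chr1:63190170-63223396 on NCBIM37), had the log2 fold change nearest to 0 of the 36 subunits with TMM. It spanned 98.7 to 180 CPM (median 138) in ac-WT and 87.8 to 185 CPM (median 120) in ac-CYB5R3–KO hearts. The ac-CYB5R3–KO range covered the ac-WT range, so that the highest and the lowest heart were both ac-CYB5R3–KO hearts. The highest was ac-CYB5R3–KO mouse 2, while 5 of 6 ac-CYB5R3–KO hearts lay below the ac-WT median. The log2 fold change was -0.13 (SE 0.18, edgeR adjusted p = 0.765, exact permutation p = 0.481). It was 0.17 with total counts, 0.01 without ac-WT mice 2 and 3, and -0.27 without ac-CYB5R3–KO mouse 2.

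The Q module had 5 genes, 3 of them lower at an unadjusted p under 0.01, with a median log2 fold change of -0.61. Ndufa5, an accessory subunit of the matrix arm (chr6:24468666-24478013 on NCBIM37), spanned 292 to 879 CPM (median 357) in ac-WT and 202 to 274 CPM (median 252) in ac-CYB5R3–KO hearts. The groups did not overlap, and ac-WT mouse 2 was far above the other ac-WT hearts. The log2 fold change was -0.90 (SE 0.24, edgeR adjusted p = 0.173, exact permutation p = 0.00216), or -0.43 without ac-WT mice 2 and 3.

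Core subunits of the Q module had smaller log2 fold changes than Ndufa5. Ndufs7, which carries the last iron-sulfur cluster before ubiquinone, spanned 179 to 393 CPM (median 205) and 123 to 182 CPM (median 166), and its log2 fold change was -0.61 ± 0.19 (SE, edgeR adjusted p = 0.198, exact permutation p = 0.00433). Ndufs8, which carries the clusters that feed Ndufs7, spanned 104 to 273 CPM (median 124) and 71.4 to 106 CPM (median 95.7), and its log2 fold change was -0.66 ± 0.21 (SE, edgeR adjusted p = 0.211, exact permutation p = 0.00433). In each, 5 of 6 ac-CYB5R3–KO hearts were below the lowest ac-WT heart.

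Ndufs3 spanned 173 to 395 CPM (median 186) in ac-WT and 111 to 172 CPM (median 156) in ac-CYB5R3–KO hearts, and it was the only core subunit whose groups did not overlap (log2 fold change -0.58, SE 0.20, edgeR adjusted p = 0.227, exact permutation p = 0.00216).

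The P module had 21 nuclear genes, all accessory subunits, since its core subunits are encoded by mitochondrial DNA. Of these, 14 were lower at an unadjusted p under 0.01 and 14 did not overlap, with a median log2 fold change of -0.67. The 10 genes of the proximal part, next to the matrix arm, had a median of -0.64 and 6 at that level, and the 11 of the distal part had a median of -0.75 and 8. Ndufb9, an LYR-motif subunit of the distal part, spanned 216 to 522 CPM (median 247) in ac-WT and 154 to 184 CPM (median 170) in ac-CYB5R3–KO hearts (log2 fold change -0.86, SE 0.21, edgeR adjusted p = 0.173, exact permutation p = 0.00216). Ndufb2, also of the distal part, spanned 80.7 to 229 CPM (median 96.2) and 57.4 to 71.9 CPM (median 67.3), the largest log2 fold change of the 36 subunits with TMM and with total counts at -0.94 (SE 0.23, edgeR adjusted p = 0.173, exact permutation p = 0.00216) and -0.54. Neither gene overlapped between the groups.

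Ndufa10, a proximal subunit related to nucleoside kinases, had the highest p in the P module. It spanned 232 to 559 CPM (median 245) in ac-WT and 174 to 270 CPM (median 250) in ac-CYB5R3–KO hearts, and its log2 fold change was -0.34 ± 0.22 (SE, edgeR adjusted p = 0.482, exact permutation p = 0.292). The ac-CYB5R3–KO median was the higher one, and 1 ac-WT heart, mouse 2, stood far above the rest. With total counts the log2 fold change was 0.03. Ndufb6, with -0.23, was the distal subunit nearest to 0 with TMM, and with total counts it was at 0.04. Ndufa9, Ndufc2 and Ndufb3 lay between -0.42 and -0.38 with TMM.

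**Figure D4:**
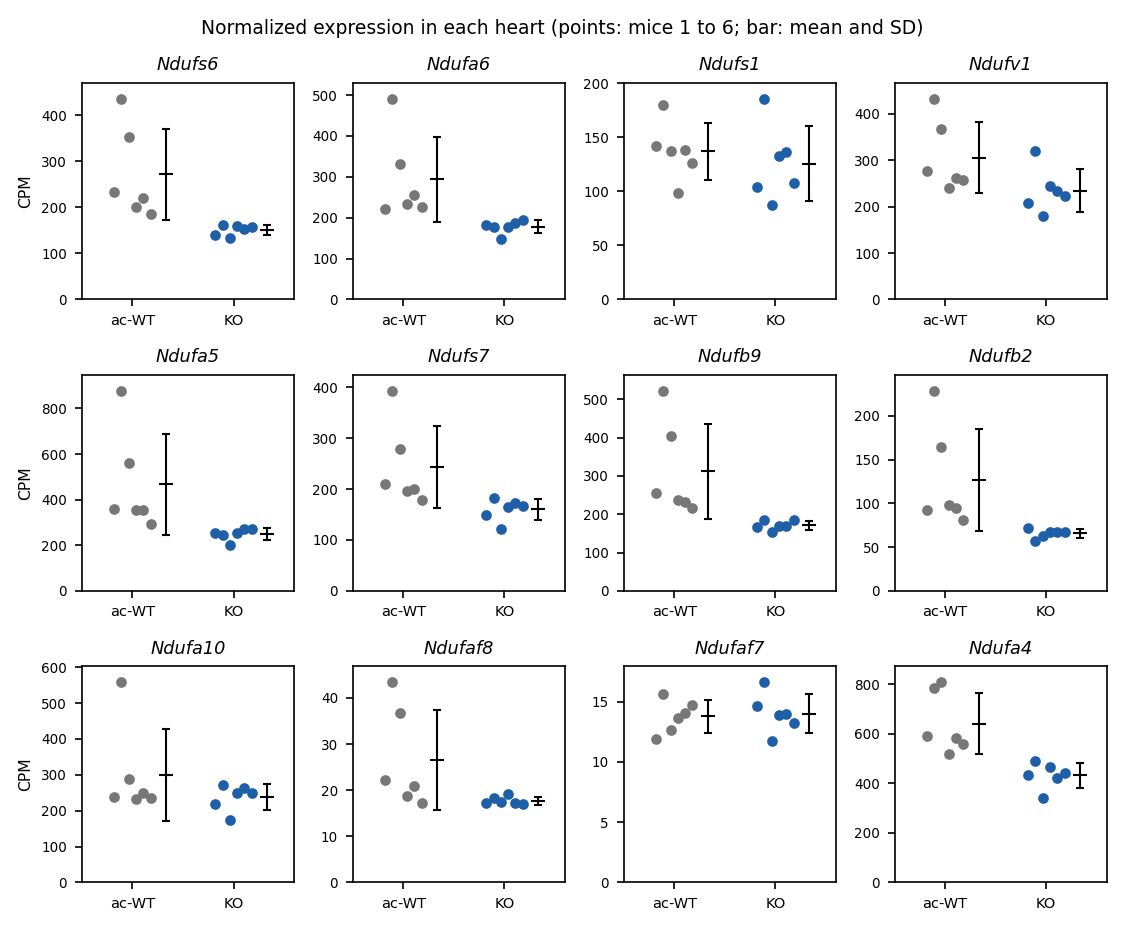
Normalized expression (CPM with TMM factors, vertical axes from 0) of 12 Nduf genes in each heart, with the mean and SD of 6 hearts beside each group; KO stands for ac-CYB5R3–KO. Ndufs6, Ndufa6, Ndufa5, Ndufb9, Ndufb2 and Ndufa4 do not overlap between the groups, Ndufs1, Ndufv1, Ndufs7, Ndufa10, Ndufaf8 and Ndufaf7 do, and in most panels the highest point is ac-WT mouse 2.

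The modules lay close to each other. With total counts 9 of 10 N, 5 of 5 Q and 19 of 21 P module genes were lower, and the medians were -0.31, -0.25 and -0.31. The mean log2(CPM + 1) of the N module minus that of the P module differed between the groups by 0.03 and that of the Q module minus the P module by 0.01, both within the spread between hearts (SD 0.04 in both groups for the former, 0.04 and 0.06 for the latter). Core and accessory subunits lay further apart. Of 7 nuclear core subunits 2 were lower at an unadjusted p under 0.01 and 1 did not overlap (median log2 fold change -0.58), while of 29 accessory subunits 22 were lower at that level and 20 did not overlap (median -0.70). The accessory mean minus the core mean was -0.23 to -0.003 in ac-WT and -0.51 to -0.16 in ac-CYB5R3–KO hearts, a difference of -0.16 with overlap between the groups, or of -0.10 without ac-WT mice 2 and 3. The value of -0.51 was that of ac-CYB5R3–KO mouse 2, and the next lowest heart, ac-CYB5R3–KO mouse 5, was at -0.33. With total counts, and without ac-WT mice 2 and 3, 0 core subunits were lower at an unadjusted p under 0.01, while 11 and 17 accessory subunits were.

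Core subunits are also mostly the longer proteins, so coding length moves with this split. The accessory subunits Ndufv3, Ndufa9 and Ndufa10 are exceptions, with longer coding lengths than the core subunits Ndufs3, Ndufv2, Ndufs7 and Ndufs8. Across the 36 subunits Spearman's rho between coding length and log2 fold change was 0.284, and across 13852 tested genes with a coding length it was 0.01. The 3 subunits of at most 300 nucleotides and 18 of the 23 between 300 and 600 nucleotides were lower at an unadjusted p under 0.01, and 3 of the 10 longer ones were. Among all tested genes that share was 12.3% up to 300 nucleotides, 6.34% from 300 to 600 and 2.90% from 600 to 900, and 1.46% above 3000. The genes share the same 12 libraries and are not independent, and the part of length in the core and accessory values was not tested.

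**Figure D5:**
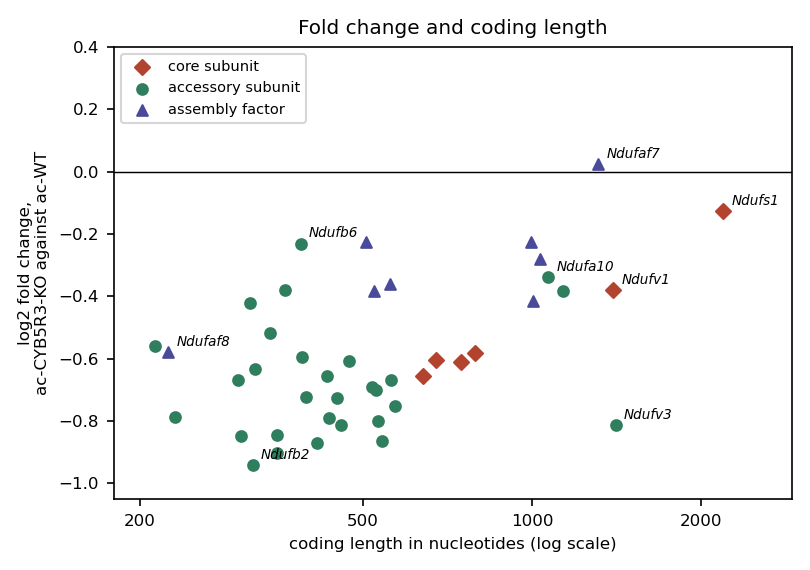
Log2 fold change (vertical axis) against the longest coding length of each gene in nucleotides (horizontal axis, log scale) for core subunits, accessory subunits and assembly factors reported singly. Most accessory subunits lie at short lengths and low values, Ndufs1 is the longest and lies at -0.13, Ndufv3 is long and lies at -0.81, and Ndufb6 is short and lies at -0.23.

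Assembly factors were expressed below the subunits. Per kilobase of transcript in ac-WT hearts, the lowest subunit, Ndufs1, had a mean level of 51.5 CPM and the highest assembly factor, Ndufaf8, one of 34.0 CPM. Ndufaf8, the partner that stabilizes Ndufaf5, had the lowest p, with 17.2 to 43.5 CPM (median 21.5) in ac-WT and 16.9 to 19.2 CPM (median 17.4) in ac-CYB5R3–KO hearts (log2 fold change -0.58, SE 0.21, edgeR adjusted p = 0.241, exact permutation p = 0.0238). Ndufaf6, needed early for the Q module and the member with the lowest counts (301 to 448), had 6.80 to 13.0 CPM (median 7.85) and 5.09 to 7.46 CPM (median 6.41), and its log2 fold change was -0.41 ± 0.16 (SE, edgeR adjusted p = 0.267, exact permutation p = 0.0281). Both overlapped, and without ac-WT mice 2 and 3 their log2 fold changes were -0.14 and -0.18.

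Ndufaf3 and Ndufaf4 act as a pair on the Q module. Ndufaf3 had 14.6 to 26.6 CPM in ac-WT and 13.1 to 16.0 CPM in ac-CYB5R3–KO hearts (log2 fold change -0.36, edgeR adjusted p = 0.282, exact permutation p = 0.0411). Ndufaf4 had 22.4 to 48.7 CPM and 22.0 to 27.6 CPM (log2 fold change -0.38, edgeR adjusted p = 0.331, exact permutation p = 0.113). Without ac-WT mice 2 and 3 the log2 fold changes of Ndufaf3 and Ndufaf4 were -0.11 and -0.05, and with total counts both were -0.03. The remaining factors had an unadjusted p above 0.05. Ndufaf5, which hydroxylates Ndufs7, had a log2 fold change of -0.28, Ndufaf2, which holds the place of Ndufa12 during assembly, one of -0.22, and Ndufaf1, part of the assembly complex of the membrane arm, one of -0.23, and all 3 were above 0 with total counts, at 0.02, 0.07 and 0.05.

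Ndufaf7, a methyltransferase that acts early in assembly (chr17:79336475-79347392 on NCBIM37), did not differ beyond the spread between mice. It had 11.9 to 15.6 CPM (median 13.9) in ac-WT and 11.7 to 16.6 CPM (median 14.0) in ac-CYB5R3–KO hearts, and its log2 fold change was 0.03 ± 0.10 (SE, edgeR adjusted p = 0.92, exact permutation p = 0.807). The highest and the lowest heart were both ac-CYB5R3–KO hearts. Among 12 other assembly factors of complex I, 10 were lower, against 51.2% of all genes, with a median of -0.16. In edgeR 0 were lower at an unadjusted p under 0.01 and 4 under 0.05, against 3.27% and 9.73% of all genes. With total counts 4 of 12 were lower, against 18.1% of all genes. Without ac-WT mice 2 and 3 it was 6 of 12, where 46.3% of all genes were lower, with a median of 0.01. Ecsit, a partner of Ndufaf1, had the lowest p of these (log2 fold change -0.58, SE 0.21, edgeR adjusted p = 0.237, exact permutation p = 0.00433). Its log2 fold change was -0.21 with total counts and -0.19 without ac-WT mice 2 and 3. Acad9, in the same assembly complex, had the highest log2 fold change, 0.15 (SE 0.12, edgeR adjusted p = 0.554, exact permutation p = 0.201).

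Ndufa4, first described in complex I and now known as a subunit of cytochrome c oxidase, had the highest level per length of all members, 1303 ± 251 CPM per kilobase (SD, n = 6) in ac-WT hearts. It spanned 520 to 809 CPM (median 587) in ac-WT and 340 to 489 CPM (median 438) in ac-CYB5R3–KO hearts without overlap, and its log2 fold change was -0.57 ± 0.14 (SE, edgeR adjusted p = 0.173, exact permutation p = 0.00216, DESeq2 adjusted p = 0.011). With total counts it was -0.26 (edgeR unadjusted p = 0.063), and without ac-WT mice 2 and 3 it was -0.37 (edgeR unadjusted p = 0.0057). Per kilobase, Ndufa3 and Ndufa5 followed, at 636 and 533 CPM in ac-WT hearts. Ndufa4l2, the relative of Ndufa4 that low oxygen induces, had 9.16 to 14.1 CPM (median 11.8) and 10.5 to 13.2 CPM (median 12.6), and its log2 fold change was 0.07 ± 0.11 (SE, edgeR adjusted p = 0.772, exact permutation p = 0.42). The ac-WT range covered the ac-CYB5R3–KO range.

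Near-copies make some counts uncertain. Ndufb4 spanned 151 to 370 CPM in ac-WT and 111 to 142 CPM in ac-CYB5R3–KO hearts, and its copy Ndufb4c spanned 120 to 283 and 88.1 to 119 CPM. Both were without overlap, and their ratio was 1.21 to 1.31 in ac-WT and 1.18 to 1.26 in the ac-CYB5R3–KO group, and the counting may have divided reads of the pair between them. A copy of Ndufa12 that RefSeq lists as a pseudogene held 36638 counts beside 93365 for Ndufa12, and one of Ndufa11 held 2268. On NCBIM37, exons of Ndufb6 share 39.0% of their length with Smim27, those of Ndufa13 30.2% with Tssk6, and those of Ndufb11 12.9% with Rbm10, each on the opposite strand.

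The 7 complex I subunits encoded by mitochondrial DNA are the core of the membrane arm. All were lower with TMM, with a median of -0.45, and 6 of 7 with total counts, where 51.2% and 18.1% of all genes were lower. In edgeR, however, 0 were lower at an unadjusted p under 0.01 and 1 under 0.05, against 3.27% and 9.73% of all genes. Without ac-WT mice 2 and 3 the median was 0.04. mt-Nd3 had the lowest p, at 3263 to 10542 CPM (median 4473) in ac-WT and 3363 to 4326 CPM (median 3601) in ac-CYB5R3–KO hearts (log2 fold change -0.58, SE 0.27, edgeR adjusted p = 0.337, exact permutation p = 0.108), and its groups overlapped. The nuclear subunit mean minus the mean of these genes differed between the groups by -0.21, or by -0.31 without ac-WT mice 2 and 3, with overlap.

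Genes of the other respiratory complexes were also lower, and their counts moved with the scaling and with ac-WT mice 2 and 3. At an unadjusted p under 0.01, edgeR gave 0 of 4 complex II genes as lower (3 at an unadjusted p under 0.05). In complex III it gave 5 of 9, in complex IV 8 of 14, in complex V 12 of 17 and among mitochondrial ribosomal proteins 16 of 76, against 3.27% of all genes. With total counts, where 0.79% of all genes were lower at that level, these counts were 1, 2, 2 and 0, beside 11 of 36 for complex I. Without ac-WT mice 2 and 3, where 1.32% of all genes were, they were 3, 2, 7 and 5, beside 17 of 36 for complex I. No test compared the complexes. Their median log2 fold changes with TMM were -0.39, -0.59, -0.60, -0.62 and -0.29, beside -0.66 for complex I. With total counts the first 4 medians were -0.08, -0.24, -0.25 and -0.27, and that of the ribosomal proteins was 0.03.

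The subunits varied together from heart to heart. The median Pearson correlation between pairs of the 36 genes over 12 hearts was 0.926, and over the 10 hearts without ac-WT mice 2 and 3 it was 0.674. For the 8 assembly factors these values were 0.685 and 0.417. These correlations were taken on deviations from the mean of each group, so they leave out the difference between the groups. They include the shared scaling of each library, and are given as descriptions.

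Cyb5r3 spanned 81.9 to 185 CPM (median 121) in ac-WT and 42.0 to 67.4 CPM (median 52.7) in ac-CYB5R3–KO hearts, without overlap, so no library went against its label (log2 fold change -1.22, SE 0.19, edgeR adjusted p = 0.045). Cardiomyocyte markers moved with the subunits. All 14 were tested, and none was at 0 in all libraries. With TMM 11 were lower, against 51.2% of all genes, and with total counts 9 were, against 18.1%. In edgeR 3 were lower at an unadjusted p under 0.01, against 3.27% of all genes. The summed level of the markers was 26901 to 60233 CPM in ac-WT and 19938 to 34061 CPM in ac-CYB5R3–KO hearts. Their median log2 fold change was -0.38, and -0.08 without ac-WT mice 2 and 3. With their mean as a covariate, 33 of 36 subunits were lower, 1 at an unadjusted p under 0.01 against 0.628% of all genes, with a median of -0.22. In RNA from whole hearts, fewer cardiomyocytes and less RNA per cardiomyocyte cannot be told apart.

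Markers of other cells also differed. The 6 matched red blood cell markers of 8 listed were all higher, 0 at an unadjusted p under 0.01 and 4 under 0.05 in edgeR (4.91% of all genes tested were higher at the latter level), with summed levels of 222 to 4492 CPM in ac-WT and 1325 to 12245 CPM in ac-CYB5R3–KO hearts. Of 7 tested lymphocyte markers 3 were higher at an unadjusted p under 0.01, against 1.33% of all genes (2 with an edgeR adjusted p under 0.05), with sums of 2.62 to 5.83 and 7.96 to 20.6 CPM, and of 6 tested cartilage and airway markers 3 were, with sums of 7.79 to 60.7 and 70.6 to 140 CPM. In the macrophage list of 8, 1 was lower at that level, against 3.27% of all genes, and 3 lay above 0. Without ac-WT mice 2 and 3 all 8 macrophage markers were lower, and their median log2 fold change was -0.40 in place of -0.03. In the smooth muscle and pericyte list of 8, 2 were lower at that level, 2 were higher at an unadjusted p under 0.05 and 4 in all lay above 0, with a median log2 fold change of 0.0009. The summed levels of both lists overlapped between the groups. In the endothelial and fibroblast lists of 8 and the 1 adipocyte marker tested, 0 passed that level and 0 had an unadjusted p under 0.05 in edgeR. Without ac-WT mice 2 and 3, where 46.3% of all genes were lower, 7 of 8 fibroblast and 3 of 8 endothelial markers were lower. The fibroblast median was then -0.28 in place of -0.06. No list had a marker at 0 in all libraries. The part of these cells in the subunit values was not tested.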

How the data were processed

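Total RNA from 12 whole hearts was sequenced as 75 bp unpaired reads from TruSeq Stranded libraries. The authors deposited raw counts, whole numbers of reads per Ensembl gene and library, not normalized or filtered. The study's methods describe adapter trimming, STAR and the mouse genome mm9, while the submitters' processing notes list STAR, featureCounts and GRCm39. The table holds no coordinates, the strand setting of the counting is not given in the sources used here, and a stranded kit counted without strand would merge antisense neighbours. Columns were assigned by sample title.

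Symbols, positions and lengths came from GENCODE on NCBIM37 (mm9), and current symbols, biotypes and promoters from RefSeq on GRCm38.p6. Symbols were found for 57.8% of identifiers. 5 members carried an older symbol in GENCODE, and 2 pseudogenes were left out. Members, modules and marker lists were chosen with earlier results of these data known.

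Genes passing filterByExpr (minimum count 10) were scaled with TMM factors and fitted in edgeR 4.0.16 (R 4.3.3). Its quasi-likelihood test was two-sided and had no covariate, and p-values were adjusted by Benjamini-Hochberg over 17847 genes. The study used Cuffdiff, which needs reads. The code was tested on simulated data. CPM are counts scaled to library size with TMM factors. For single members an exact permutation test, two-sided, was run on log2(CPM + 1). CPM per kilobase used the transcript with the longest coding sequence. Alternatives were DESeq2 1.42.0, limma-voom (limma 3.58.1), total counts, scaling without mitochondrially encoded genes, other filters, other pseudocounts, the replicate number as a block, a cardiomyocyte marker covariate, and leaving out mice singly or ac-WT mice 2 and 3 together. With 43393183 to 53754284 counts per library, the spread between mice limits precision (common biological coefficient of variation 26.5%).

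Genes named with values were the 7 nuclear core subunits, the 2 lowest and the highest p in each module, all Ndufaf genes, Ndufa4 and Ndufa4l2, the member with the lowest counts and any that failed the filter, the 3 highest per length, any with a log2 fold change above 0, any with a library that stood apart, and, of other complex I genes, the lowest p and the highest log2 fold change. Other members were named after their values were seen. A member is not reported singly here and stays in the counts and medians.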

Additional observations from a re-analysis of the deposited data

Results flagged for a closer look

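In each group of 6 hearts the highest and the lowest value of each member were compared with the gap to their nearest neighbour by Dixon's criterion (a gap over 0.625 of the range). Chance flags about 1 in 20 groups, and 94 groups were examined for single members. The libraries share their scaling and the genes move together, so these flags are not independent.

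ac-WT mouse 2, the library with the lowest TMM factor, stood above the other ac-WT hearts in Ndufv3 (444 CPM), Ndufv2 (664 CPM), Ndufs8 (273 CPM), Ndufs3 (395 CPM), Ndufb11 (590 CPM), Ndufb8 (419 CPM), Ndufb4 (370 CPM), Ndufa9 (294 CPM), Ndufa10 (559 CPM) and Ndufb4c (283 CPM). ac-CYB5R3–KO mouse 3 stood below the other ac-CYB5R3–KO hearts in Ndufv2 (176 CPM), Ndufs5 (125.5 CPM), Ndufab1 (130 CPM), Ndufb4 (111 CPM), Ndufc2 (81.0 CPM), Ndufb3 (101 CPM) and Ndufb4c (88.1 CPM). The same heart was the low one in the mean log2(CPM + 1) of the subunits (6.93) and of the assembly factors (3.75).

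In Ndufa4l2, ac-CYB5R3–KO mouse 2 was below the others (10.5 CPM).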

How the results depend on the processing

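All 36 subunits kept a log2 fold change below 0 with DESeq2, limma-voom, other filters and scaling without mitochondrial genes. Their count at an unadjusted p under 0.01 was 24, and it was 11 with total counts and 1 with the cardiomyocyte covariate. For the N, Q and P modules (7, 3 and 14) it was 2, 1 and 8 with total counts, 1, 0 and 0 with the covariate, and 4 and 1 for N and Q without ac-WT mice 2 and 3. For the assembly factors, 0 became 1 with DESeq2 and with no filter. Total counts left 4 of 8 assembly factors lower and moved their median from -0.32 to -0.0035. At an adjusted p under 0.05 DESeq2 called 17 members. The cause of these shifts was not tested.

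Directions reversed with total counts in Ndufs1 (0.17), Ndufa10 (0.029), Ndufb6 (0.044), Ndufaf1 (0.048), Ndufaf2 (0.065) and Ndufaf5 (0.021). With the covariate they reversed in Ndufs1 (0.15), Ndufa10 (0.13), Ndufa9 (0.047) and Ndufa4l2 (-0.077). Without ac-WT mice 2 and 3 they reversed in Ndufs1 (0.0086), Ndufa10 (0.0056) and Ndufa4l2 (-0.018). Ndufaf7 ran from -0.028 to 0.076 when single mice were left out, the former without ac-CYB5R3–KO mouse 2, and was -0.013 without ac-WT mouse 1.

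Leaving out single mice, the subunit count ran from 12 (without ac-CYB5R3–KO mouse 3, when 320 of 17969 genes were lower at that level) to 29 (without ac-WT mouse 1, 837 of 18011) and was 15 without ac-WT mouse 3 (287 of 18062), and the counts ran from 3 to 8 for N, 1 to 4 for Q, 8 to 17 for P and 0 to 1 for assembly factors. The count for N was 4 without ac-CYB5R3–KO mouse 2 or 4 and 3 without ac-CYB5R3–KO mouse 3 or ac-WT mouse 3, and that for Q was 1 without ac-CYB5R3–KO mouse 1, 3, 4 or 6 or ac-WT mouse 3. Subunit medians ran from -0.73 to -0.42, assembly factor medians from -0.38 to -0.18, each closest to 0 without ac-WT mouse 2, and the subunit minus assembly factor difference from -0.35 to -0.24.

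The replicate numbers name different mice. Correlations of the deviations of same-numbered mice ran from -0.160 to 0.360 (mean 0.133, against -0.03 for other pairs), and 3 of 6 ac-CYB5R3–KO mice were most like their own number, so no pairing was established. With the number as a replicate block, 15 subunits were lower at an unadjusted p under 0.01, beside 437 of 17847 genes, with 3 in N, 1 in Q and 0 among core subunits (2 without the block), and the subunit median was -0.58.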
